A study of Homo sapiens with 647 samples.

Results

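The 50 genes described here carry cells through mitosis: the cyclins, kinases, checkpoint proteins, motors and centromere and kinetochore subunits, together with the proliferation marker MKI67. They were chosen as a named list, 50 of the 54592 genes in the deposited count table, and all 50 were found there. Each was followed gene by gene and as a mean level over the list. The list was drawn up with results of these data already known, and no measured value enters the rule that defines it.

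The study used T47D, an estrogen receptor positive human breast cancer cell line, to ask how FGF receptor signalling changes the response to anti-estrogen and CDK4/6 inhibition. The 647 SMART-Seq2 libraries (full-length cDNA made from small amounts of RNA) came from parental cells and from lines newly infected with lentivirus from the pLX307 vector carrying GFP, FGFR1, wild-type FGFR2, FGFR2 M538I, FGFR2 N550K, FGFR2 K660N or FGF3. Cells stood 48 h in 96-well plates and then received drug or ligand for 24 h. The arms were DMSO vehicle, fulvestrant, which degrades the estrogen receptor (Fulv, 100 nM), palbociclib against CDK4/6 (Palbo, 1 uM), FIIN-3, which binds FGF receptors covalently (100 nM), trametinib against MEK (Tram, 500 nM) and the ligand FGF2, whose dose is not given in the sources used here, alone or combined. The receptors and FGF3 were introduced by virus, so the lines model overexpression and not a change at the native locus. The labels do not say that libraries of a group came from separate cultures, so p-values reflect only how far these samples vary, and that variation may be technical. Bulk libraries cannot tell fewer cells in mitosis from less RNA per mitotic cell.

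Lines were grouped as control (parental and GFP), FGFR1, FGFR2 (wild type, M538I and K660N), N550K and FGF3. N550K was kept apart from the other FGFR2 lines because in set 1 it alone among them had FIIN-3 arms without FGF2. FGF3 cells had no FGF2 arms. Sample titles number the libraries through in 2 runs, treated as set 1 (64 groups) and set 2 (48 groups), and no value was compared across them. Set 1 held DMSO, FGF2, FIIN-3, FIIN-3+FGF2, Fulv, Fulv+FGF2, Fulv+FIIN-3, Fulv+Tram, Fulv+Palbo, Fulv+FGF2+FIIN-3, Fulv+FGF2+Tram and Fulv+Palbo+FGF2. Set 2 held an FGF3 group labelled control, FIIN-3, Palbo, Palbo+FGF2, Palbo+FIIN-3, Palbo+FGF2+FIIN-3, Fulv+Palbo+FIIN3, Fulv+Palbo+FGF2+FIIN-3, Fulv+Palbo+Tram and Fulv+Palbo+FGF2+Tram.

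Entry into mitosis is driven by CDK1 bound to cyclin A or B, after CDC25 phosphatases remove inhibitory phosphates from it. Aurora and Polo-like kinases then mature the centrosomes and help build the spindle, kinetochores tie chromosomes to microtubules, and the spindle checkpoint holds the anaphase-promoting complex in check until all chromosomes are attached. Most of these genes are transcribed late in the cell cycle, when the MuvB core with MYBL2 and FOXM1 binds their promoters through an element called the CHR, often next to CCAAT boxes that bind NF-Y. In resting cells the same core forms the repressive DREAM complex, and CDK4/6 inhibitors lead there by way of RB1 and its relatives.

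Promoter sequences are shown because these elements are shared by many members. Windows from 250 bases before to 50 bases after the RefSeq start (build GRCh38.p14) were matched by symbol for 42 of the 50 members; AURKA, BIRC5, BUB3, CDCA2, ESCO2, TPX2, TTK and UBE2C had no window. TTTGAA (the CHR) and CCAAT (the NF-Y motif) were searched on both strands, and matches that share bases were each counted. Capitals mark the matches; a minus-strand CCAAT reads ATTGG. CCNB2 (cyclin B2, chr15:59104896-59105195, plus strand) and PLK1 (Polo-like kinase 1, chr16:23678639-23678938, plus strand) show the common arrangement of CCAAT upstream of a CHR. KIF4A (a chromosome-bound kinesin, chrX:70289854-70290153, plus strand) is the member that tracked the others most closely. CCNB1 (cyclin B1, chr5:69166900-69167199, plus strand) holds CCAAT without this CHR. CDC25B (the phosphatase that starts CDK1 activation, chr20:3786701-3787000, plus strand) holds neither, and ECT2 (the exchange factor that activates RHOA in cytokinesis, chr3:172750476-172750775, plus strand) holds both although it tracked the others least.
CCNB2: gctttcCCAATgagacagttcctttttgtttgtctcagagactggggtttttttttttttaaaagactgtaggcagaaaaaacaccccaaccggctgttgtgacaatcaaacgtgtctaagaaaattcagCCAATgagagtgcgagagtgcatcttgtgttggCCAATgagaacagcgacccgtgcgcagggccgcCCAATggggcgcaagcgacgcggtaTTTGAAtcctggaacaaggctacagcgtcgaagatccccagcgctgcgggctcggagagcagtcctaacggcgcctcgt
PLK1: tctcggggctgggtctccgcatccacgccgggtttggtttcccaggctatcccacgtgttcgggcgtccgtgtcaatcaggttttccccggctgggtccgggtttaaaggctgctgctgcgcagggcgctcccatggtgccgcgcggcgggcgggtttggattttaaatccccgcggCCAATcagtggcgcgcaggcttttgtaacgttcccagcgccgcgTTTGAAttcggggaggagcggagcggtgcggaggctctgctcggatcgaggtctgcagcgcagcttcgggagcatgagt
KIF4A: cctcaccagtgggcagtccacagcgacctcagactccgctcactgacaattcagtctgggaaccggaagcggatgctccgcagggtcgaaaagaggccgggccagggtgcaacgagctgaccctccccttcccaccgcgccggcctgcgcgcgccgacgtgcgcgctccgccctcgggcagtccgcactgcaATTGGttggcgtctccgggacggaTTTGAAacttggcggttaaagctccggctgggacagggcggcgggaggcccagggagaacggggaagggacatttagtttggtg
CCNB1: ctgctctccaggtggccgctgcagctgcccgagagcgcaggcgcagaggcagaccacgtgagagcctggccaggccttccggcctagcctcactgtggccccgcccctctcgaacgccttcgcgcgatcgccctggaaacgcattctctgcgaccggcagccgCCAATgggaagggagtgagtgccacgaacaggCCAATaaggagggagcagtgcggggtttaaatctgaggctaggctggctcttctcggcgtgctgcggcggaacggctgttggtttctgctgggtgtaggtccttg
CDC25B: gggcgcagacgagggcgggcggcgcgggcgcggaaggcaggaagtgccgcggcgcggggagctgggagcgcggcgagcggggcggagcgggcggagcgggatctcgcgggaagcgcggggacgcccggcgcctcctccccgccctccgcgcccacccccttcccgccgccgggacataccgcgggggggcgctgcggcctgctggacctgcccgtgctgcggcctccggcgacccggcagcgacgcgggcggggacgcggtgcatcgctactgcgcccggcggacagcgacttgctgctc
ECT2: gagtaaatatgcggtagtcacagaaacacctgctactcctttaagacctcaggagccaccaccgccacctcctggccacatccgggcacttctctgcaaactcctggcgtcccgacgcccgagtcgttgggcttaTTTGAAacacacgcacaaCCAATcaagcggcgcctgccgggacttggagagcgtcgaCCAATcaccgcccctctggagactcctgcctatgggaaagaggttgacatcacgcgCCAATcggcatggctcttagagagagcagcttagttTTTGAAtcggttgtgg

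TTTGAA was present in 30 of 42 member windows (71.4%), against 4212 of 27305 RefSeq windows of the same length (15.4%). CCAAT was present in 32 (76.2%, against 35.7% of all windows), and at least 2 CCAAT in 18 (42.9%, against 11.3%). Both motifs stood together in 25 windows (59.5%, against 6.08%). The 39 CHR matches had a median first base at -23 from the start, and 30 of them lay between -60 and 50. The 64 CCAAT matches had a median at -68, with 52 between -120 and -1. These shares describe letters in a window and are not evidence of binding. Members with and without a CHR match had similar median responses, a difference that was not tested: in control lines the median log2 change with Palbo was -3.96 (30 members) and -3.91 (12 members), that with FGF2 was 1.01 and 0.92, and that with FIIN-3 was -1.72 in both.

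**Figure D1:**
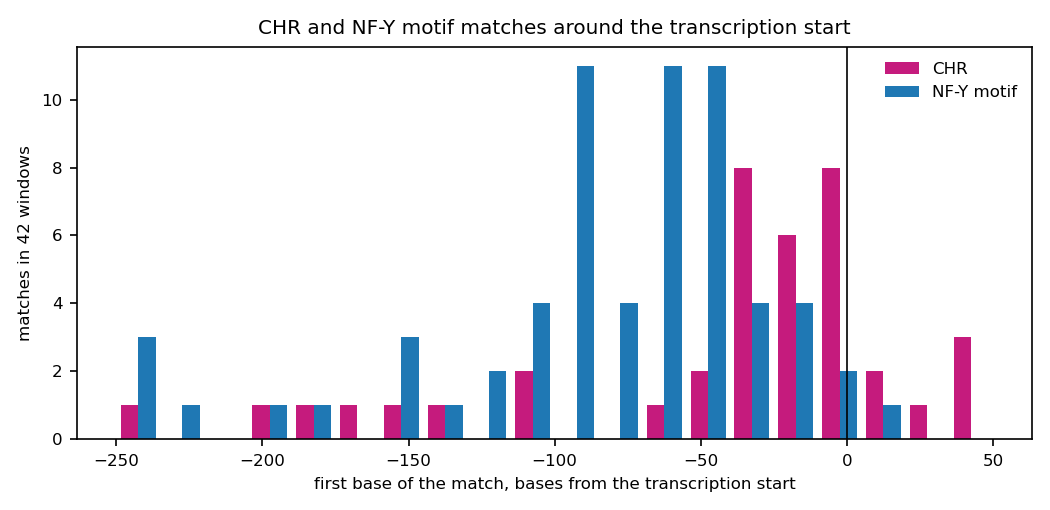
Number of CHR and NF-Y motif (CCAAT) matches in the 42 member promoter windows (bars) by the distance of the first base from the RefSeq transcription start, in bases; the vertical line is the start. CHR matches gather just before the start (median -23) and CCAAT matches upstream of them (median -68).

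Total counts ran from 512961 to 13012180 in set 1 (median 7570052.5) and from 619509 to 4804935 in set 2 (median 2887186), and the 50 members took a median 0.351% of counts in set 1 and 0.0792% in set 2, where most arms held Palbo. In 14 libraries of set 1 and 2 of set 2, the mitochondrial rRNA gene MT-RNR2 took under 5% of counts, below the other libraries; they are called the libraries that stand apart. They include 8 of 45 DMSO and 2 of 46 Fulv libraries and none of the 42 FGF2 or 42 Fulv+FGF2 libraries, so they move with the treatment contrast. Counts of called members without them are given beside each comparison they touch where they change the count. A share of all genes belongs to the fit with all libraries unless said otherwise. Counts by DESeq2 or with the title number as a block are given without a share. Luminal markers were present, with a median log2(TPM + 1) in control DMSO libraries of 14.07 for KRT19, 3.94 for ESR1 and 3.92 for FOXA1, while 7 of 10 markers of other cell types (PTPRC, CD3E and LYZ of leukocytes, PECAM1 and CDH5 of endothelium, COL1A2 and COL3A1 of fibroblasts) had a median of 0. The other 3, all mesenchymal, had medians of 3.49 (ACTA2), 2.43 (COL1A1) and 0.76 (VIM).

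The members differed widely in level. Per length, on the log2(TPM + 1) scale, the highest medians in the 12 control DMSO libraries were those of the ubiquitin-conjugating enzyme UBE2C (8.72), securin PTTG1 (7.73), CCNB1 (7.61) and CDK1 (7.41). The lowest were those of the kinesin KIF14 (1.33), the centriole kinase PLK4 (1.55), the centromeric histone CENPA (1.70) and the cohesin acetyltransferase ESCO2 (1.96). MKI67 stood at 3.18 on this scale. PTTG1 and UBE2C have close copies elsewhere in the genome, so their counts may mix with those of the copies. PTTG1, UBE2C and CENPN were also high in the libraries that stand apart: PTTG1 was between 592 and 1899.9 CPM (counts scaled to a common library size) in the 8 such DMSO libraries and between 94.1 and 365.8 CPM in the other 37. UBE2C was between 1006 and 2196 CPM against 143.003 to 567, and CENPN between 137.2 and 354.4 CPM against 42.6 to 94.3. MKI67, at 51.04 to 102.3 CPM against 46.1 to 111.5 CPM, was not.

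The mean level over the 50 members set the treatments of set 1 far apart. The score was the mean log2 CPM with a prior count of 2, as mean ± SD over libraries. In control lines it was 5.44 ± 0.15 with DMSO, 6.44 ± 0.19 with FGF2, 5.24 ± 0.23 with Fulv and 6.24 ± 0.24 with Fulv+FGF2 (n = 12 each). On top of Fulv+FGF2 it was 5.77 ± 0.18 with Tram (n = 12), 4.58 ± 0.23 with FIIN-3 (n = 11) and 2.46 ± 0.23 with Palbo (n = 12). The lowest FGF2 library (6.19) was above the highest DMSO library (5.64), and the Palbo libraries (2.06 to 2.88) lay below all others of these lines. Without inhibitors of FGFR, MEK or CDK4/6, FGFR1 cells ran from 4.91 ± 0.19 with Fulv (n = 6) to 6.55 ± 0.13 with FGF2 (n = 6).

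**Figure D2:**
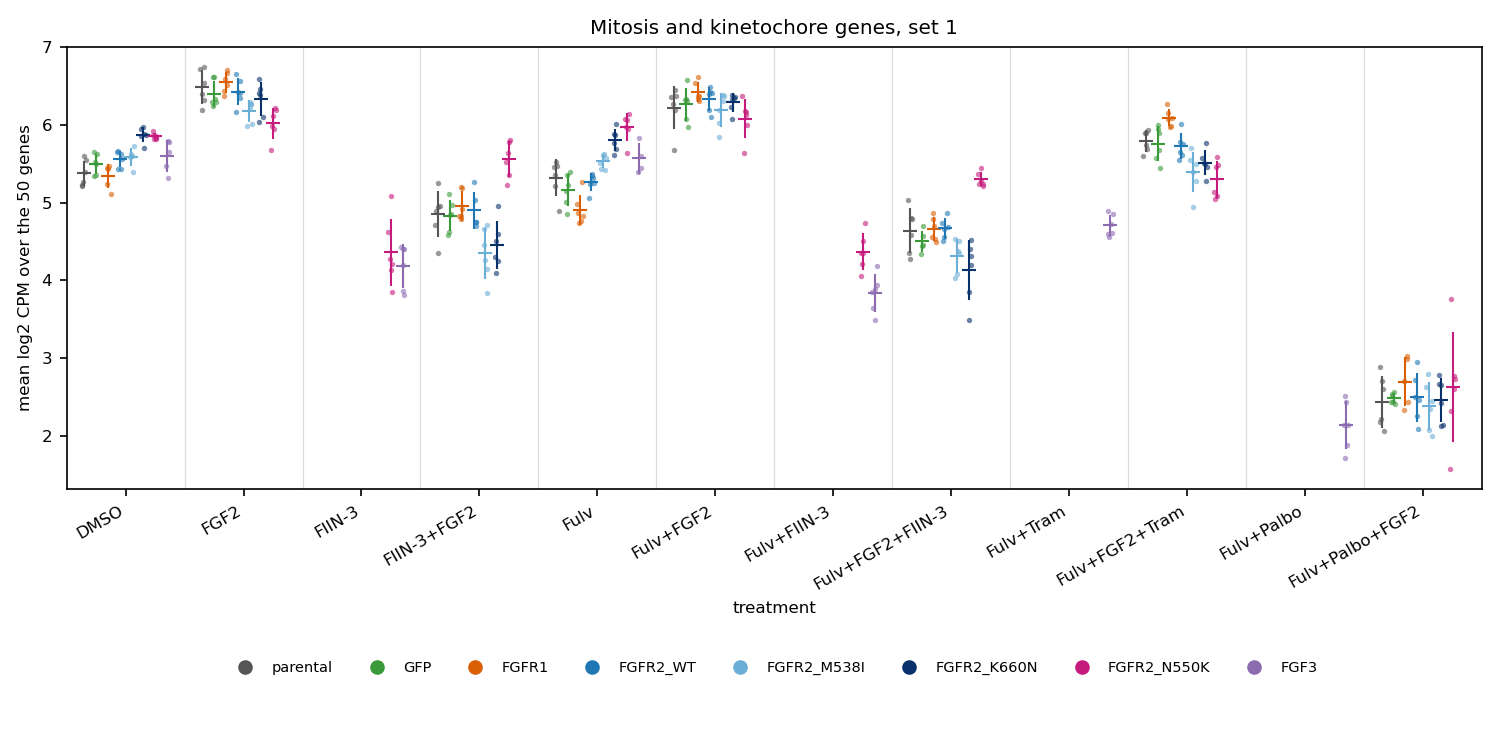
Mean log2 CPM over the 50 members in each set 1 library (points) by treatment, coloured by line, with the mean ± SD of each group as bars. Control (parental and GFP) libraries lie between 6.19 and 6.74 with FGF2, above the 5.21 to 5.64 of DMSO, and between 2.06 and 2.88 with Fulv+Palbo+FGF2.

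FGF2 raised most of the list in control, FGFR1 and FGFR2 lines. In N550K no member was called, and few genes of any kind were. In control lines 47 of 50 members rose and none fell with FGF2 against DMSO (3.7% of all genes tested were higher), with a median log2 change of 0.99. Here and below, a call is an edgeR quasi-likelihood adjusted p under 0.05 over all genes tested, and over all genes the median change lay between -0.11 and 0.05 in every comparison. In FGFR1 cells 39 rose (14.4% of all genes, member median 1.22) and in the FGFR2 class 38 rose (18.7%, median 0.72). Without the libraries that stand apart these counts were 50, 46 and 46. The shares of all genes called were then 9.62%, 33.7% and 26.6%, in either direction.

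Among the entry genes, CCNB1 was 159.6, 245.3 and 333.7 CPM in the lowest, median and highest control DMSO libraries and 352.9, 458 and 615 CPM with FGF2. These ranges did not overlap. PLK1, the kinase of mitotic entry and spindle assembly, went from 43.2, 117.997 and 165.3 to 189.3, 239.1 and 345.8 CPM, again with every FGF2 library above every DMSO library. MKI67 went from 46.1, 54.9 and 74.1 to 92.8, 118.3 and 154.05 CPM. In all, 25 of the 50 members had non-overlapping ranges in this comparison, a count given without the share over all genes. All 7 cyclin-CDK1 members and all 4 mitotic kinases rose, with median log2 changes of 0.87 and 0.98.

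The largest log2 increases in control lines were in KIF14, a kinesin of the midbody, at 1.495 ± 0.20 (adjusted p = 1.24e-05), in the spindle protein DLGAP5 at 1.41 ± 0.21 (adjusted p = 4.65e-05), and in the checkpoint kinase BUB1 at 1.40 ± 0.27 (adjusted p = 0.00116). All 7 kinesins, all 7 spindle and cytokinesis members and all 5 checkpoint members rose, with medians of 1.16, 1.196 and 1.07. In FGFR1 cells the largest were the contractile ring scaffold ANLN at 2.22 ± 0.31 (adjusted p = 0.000395) and ECT2 at 2.08 ± 0.30 (adjusted p = 0.000408). Without the FGFR1 library that stands apart KIF18A was the largest, at 2.28 ± 0.34, before ECT2 at 2.09 ± 0.28 and ANLN at 2.06 ± 0.26. ANLN was 14.4, 33.98 and 49.1 CPM with DMSO and 85.04, 149.5 and 207.1 CPM with FGF2. The FGF2 libraries all lay above the DMSO libraries.

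The 3 members not called in control lines were UBE2C (0.30 ± 0.29), the centromere protein CENPN (0.27 ± 0.25) and PTTG1 (-0.16 ± 0.39). Without the 1 control library that stands apart they were 0.79 ± 0.15, 0.71 ± 0.09 and 0.66 ± 0.14, and all 3 were called. In FGFR1 cells PTTG1 moved from -1.05 ± 0.55 to 0.30 ± 0.19 in the same way, and in N550K cells from -1.80 ± 0.62 to 0.02 ± 0.18, and none of these values was called. The levels of these anaphase and centromere genes with FGF2 therefore depend on which DMSO libraries are kept.

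Few members were called with fulvestrant alone, and few genes of any kind were. None passed in control lines (1.55% of all genes were called in either direction; 10 members at unadjusted p under 0.05), in FGFR1 cells (0.0791%; 15), in N550K cells (0.00793%; 1) or in FGF3 cells (0%; 0 of 49 tested). DESeq2 also called 0 members in each of these. Without the control library that stands apart, ESCO2 (-0.77 ± 0.20) and CDCA5 (-0.46 ± 0.12) were called lower in control lines. The share over all genes was then 2.77% in either direction. In the fits with all libraries the member medians were -0.18 in control lines, -0.33 in FGFR1, 0.08 in N550K and -0.09 in FGF3. Without the FGFR1 library that stands apart, member changes in FGFR1 ran from -1.31 to -0.13, with a median of -0.39 and none called. The FGFR1 score was 5.34 ± 0.16 with DMSO (n = 5) and 4.91 ± 0.19 with Fulv (n = 6). With so few genes called, the lack of calls does not show a lack of change. Of the FGF3 libraries, 4 of 5 DMSO and 1 of 4 Fulv had low depth (under the set median divided by 3). In the FGFR2 class 2 members fell (1.11% of all genes were lower): AURKB, the kinase of the chromosomal passenger complex, by 0.64 ± 0.16, and CDCA3, which promotes degradation of the CDK1 inhibitor WEE1, by 0.73 ± 0.19. Neither passed without the libraries that stand apart, and a fit with the title number as a block called 6 members. The DMSO libraries are shared with the FGF2 comparisons above.

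FGF2 had a like effect in the presence of fulvestrant. All 50 members rose in control lines (7.02% of all genes, median 1.02), all 50 in FGFR1 cells (12.7%, median 1.49) and 48 in the FGFR2 class (17.4%, median 0.75; 50 without the libraries that stand apart). Without those libraries, 35.9% of all genes were called in the FGFR2 class, in either direction. In FGFR1 cells 46 members had every Fulv+FGF2 library above every Fulv library, a count given without the share over all genes. KIF18A, the kinesin that dampens chromosome oscillations, rose by 2.32 ± 0.26 there, BUB1 by 2.12 ± 0.33 and DLGAP5 by 2.03 ± 0.22. MKI67 was 31.03, 40.5 and 58.6 CPM with Fulv and 91.8, 106.7 and 120.2 CPM with Fulv+FGF2. The smallest increase was that of the checkpoint protein BUB3, at 0.65 ± 0.13 in FGFR1 cells and 0.46 ± 0.08 in control lines.

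Differences between line classes were tested as interactions. The FGF2 effect over DMSO was not called as different for any member between FGFR1 and control lines (0 called by edgeR, 6 at unadjusted p under 0.05, 0 by DESeq2; 3.17% of all genes were called), but 3 were called in a fit with the title number as a block. With fulvestrant, 6 members rose more in FGFR1 than in control lines (2% of all genes): PLK1 by 0.74 ± 0.21, the microtubule depolymerase KIF2C by 0.73 ± 0.19, CDCA2, AURKA, KIF4A and the passenger subunit CDCA8. The blocked fit called 11. For the FGFR2 class the differences were in the other direction, with 4 members lower over DMSO (1.16% of all genes: NUSAP1, NUF2, NDC80 and CENPF, the lowest at -0.70 ± 0.18) and NUSAP1 lower over Fulv (1.67%; 2 members without the libraries that stand apart; NUSAP1 -0.47 ± 0.13). The blocked fit called 9 and 2. Without the libraries that stand apart, 4.38% of all genes were called over Fulv in either direction. NDC80 and NUF2 are the paired subunits through which the kinetochore grips microtubules, and NUSAP1 bundles spindle microtubules.

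N550K cells began from a high level and FGF2 added little. Their DMSO score was 5.85 ± 0.04 (n = 6), with all 6 libraries (5.81 to 5.92) above all 12 control libraries and 2 of them standing apart, and their FGF2 score was 6.02 ± 0.20. No member was called with FGF2 over DMSO by edgeR (0.0957% of all genes were called; 14 members at unadjusted p under 0.05; 0 by DESeq2) or with Fulv+FGF2 over Fulv (0.353% of all genes; 1 member at unadjusted p under 0.05; 0 by DESeq2). So few genes passed that the lack of calls does not show a lack of change. MKI67 was 70.8, 90.04 and 101.1 CPM with Fulv and 87.4, 91.8 and 99.5 CPM with Fulv+FGF2, ranges that overlap. In interaction tests added after the data were seen, the FGF2 effect was lower in N550K than in control lines for 10 members over DMSO (0.231% of all genes), among them SPC25 at -1.87 ± 0.45 and MKI67 at -0.96 ± 0.20. Over Fulv it was lower for 25 members (1.71%), with ESCO2 at -1.72 ± 0.34. Without libraries that stand apart the counts were 12 and 37, with 1.03% and 3.82% of all genes called in either direction. SPC25 over DMSO was then -1.11 ± 0.27 and MKI67 -1.08 ± 0.19. The blocked fit called 41 over Fulv.

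At DMSO, single lines differed little from GFP. CDC25B alone was higher in N550K (0.954% of all genes were higher), by 0.90 ± 0.18, and in K660N (0.923%), by 0.77 ± 0.18. CDC25B was 61.8, 67.3 and 73.5 CPM in N550K and 22.8, 40.2 and 50.3 CPM in the control lines, without overlap. The member medians were 0.29 and 0.36. By line, the mean score at DMSO ran from 5.34 in FGFR1 and 5.38 in parental cells over 5.50 in GFP, 5.56 in wild-type FGFR2, 5.59 in M538I and 5.60 in FGF3 to 5.85 in N550K and 5.87 in K660N, with SDs of 0.04 to 0.20. Without the libraries that stand apart 5 of 50 members were higher in N550K and 3 of 50 in K660N. The shares of all genes called, in either direction, were then 7.93% and 3.26%, not far below those of the members. In FGF3 cells 6 members were higher (3.24% of all genes), led by PLK1 at 1.39 ± 0.26 and the midzone kinesin KIF20A at 1.08 ± 0.26, with CDC25B, separase ESPL1, the anaphase activator CDC20 and the midzone bundler PRC1. The kinetochore proteins CENPE and CENPF were lower (3.94%), at -0.98 ± 0.24 and -1.05 ± 0.28. Of the 5 FGF3 libraries, 4 had low depth (under the set median divided by 3), and the part of depth in these values was not tested, since leaving them out leaves 1 FGF3 library. Without the GFP library that stands apart 14 members were higher, and CENPE, CENPF and CDK1 (-0.67 ± 0.15) were lower. The share of all genes called was then 19.8% in either direction. Leaving out 1 library at a time gave 1 to 14 higher members, with 14 without GFP replicate 6, 2 without GFP replicate 4, 1 without FGF3 replicate 2, 2 without FGF3 replicate 1, 3 without FGF3 replicate 4 and 3 without FGF3 replicate 5.

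FIIN-3 lowered the whole list in control, FGFR1 and FGFR2 lines. With FIIN-3 on Fulv+FGF2 all 50 members fell in control lines (13.8% of all genes were lower, member median -1.71), in FGFR1 cells (15.1%, -1.78) and in the FGFR2 class (27%, -1.90). With FIIN-3 on FGF2 alone all 50 fell in the FGFR2 class (27.3%, -1.77). These comparisons with Fulv+FGF2 share its libraries with each other and with the Tram and Palbo comparisons below. In control lines the mean score was lower with Fulv+FGF2+FIIN-3 (4.58 ± 0.23, n = 11) than with Fulv (5.24 ± 0.23, n = 12). The ranges, 4.27 to 5.03 and 4.85 to 5.53, overlap, and this difference was not tested. Whether all of the fall with FIIN-3 ran through FGF receptors was not tested either.

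MKI67 was 81.1, 90.3 and 113.1 CPM in the lowest, median and highest control libraries with Fulv+FGF2 and 13.8, 21.9 and 33.5 CPM once FIIN-3 was added, a log2 change of -2.06 ± 0.13 (adjusted p = 1.95e-13). No library overlapped. AURKB went from 68.8, 91.3 and 136.4 to 16.9, 19.8 and 31.8 CPM, a change of -2.16 ± 0.13 and the largest of the 50 in those lines. CCNB1 went from 298.3, 395.8 and 458 to 109.4, 152.2 and 215.7 CPM, also without overlap. TOP2A, the topoisomerase that untangles sister chromatids, went from 111.3, 314.1 and 426 to 41.6, 79.3 and 105.9 CPM. CDC20, which activates the anaphase-promoting complex, went from 140.2, 218.01 and 356.5 to 60.01, 73.8 and 89.6 CPM. The smallest changes were those of BUB3 (-0.57 ± 0.06) and ECT2 (-0.97 ± 0.24). The 9 functional groups of members fell by similar medians in control lines, from -1.53 for the cyclin-CDK1 members to -1.94 for MKI67 and the chromosome structure genes.

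FIIN-3 also lowered the list without added FGF2 in FGF3 and N550K cells. In FGF3 cells 47 of 48 tested members fell with Fulv+FIIN-3 against Fulv (7.79% of all genes, median -1.60), ESCO2 by 4.13 ± 0.53 and sororin CDCA5, which protects cohesin, by 2.47 ± 0.13. The checkpoint kinase TTK was not called. Of these FGF3 libraries, 3 of 6 with Fulv+FIIN-3 and 1 of 4 with Fulv had low depth. In N550K cells all 50 fell with Fulv+FIIN-3 (18.9%, median -1.70), led by the NDC80 complex subunit SPC25 at -3.47 ± 0.43. Without the N550K library that stands apart ESCO2 led, at -3.12 ± 0.27, and SPC25 was -2.89 ± 0.20. In a comparison added later, 41 fell with FIIN-3 against DMSO in N550K cells (15.9%, median -1.26). Without the libraries that stand apart 48 fell, with 32.4% of all genes called in either direction. In set 2, 44 of 49 tested members fell in FGF3 cells with FIIN-3 against the group labelled control (4.23%, median -1.29). BUB3, CDC25C, PLK4, KIF2C and the passenger scaffold INCENP did not pass. Without the library that stands apart 47 fell, with 17.8% of all genes called in either direction.

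With FGF2 present, FIIN-3 lowered many members less in N550K cells than in the FGFR2 class. On FGF2, 15 members fell in N550K cells (4.2% of all genes, median -0.49), and on Fulv+FGF2, 37 fell (8.02%, median -0.76). The 13 not called in the second comparison were MAD2L1, CDC25C, BUB3, NEK2, CCNB2, CENPF, PTTG1, CDCA3, BIRC5, CENPA, CCNB1, NUF2 and PLK4. AURKB with Fulv+FGF2+FIIN-3 was 26.4, 53.9 and 72.6 CPM in N550K cells and 16.9, 19.8 and 31.8 CPM in control lines. The mean score was 5.30 ± 0.09 in N550K (n = 6) and 4.37 ± 0.34 in the FGFR2 class (n = 18), and every N550K library (5.21 to 5.44) lay above every library of the FGFR2 class (highest 4.86) and of the control lines (highest 5.03). The interaction was positive for 35 members against the FGFR2 class (1.55% of all genes were higher), with AURKB at 1.72 ± 0.22 (adjusted p = 5.89e-07) and NDC80 at 1.48 ± 0.28. It was positive for 41 once libraries that stand apart were left out, with 2.25% of all genes called in either direction. Without fulvestrant, in a test added later, 43 members had a positive interaction (1.84%), with DLGAP5 at 1.63 ± 0.34.

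FGF2 raised the list in N550K cells when FIIN-3 was present. In comparisons added after the data were seen, 43 of 50 members rose with FIIN-3+FGF2 against FIIN-3 (10.7% of all genes, median 1.01), and 40 rose with Fulv+FGF2+FIIN-3 against Fulv+FIIN-3 (18.5%, median 0.93). MKI67 was 12.4, 16.8 and 31.6 CPM with Fulv+FIIN-3 and 31.3, 44.1 and 60.5 CPM when FGF2 was also present. The highest library of the first arm was level with the lowest of the second. The outer kinetochore gene SPC25 rose by 2.32 ± 0.26, the kinetochore motor CENPE by 2.07 ± 0.25 and NDC80 by 1.91 ± 0.18. The same comparison was not made in other lines, since none of them had FIIN-3 arms both with and without FGF2 in set 1.

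**Figure D3:**
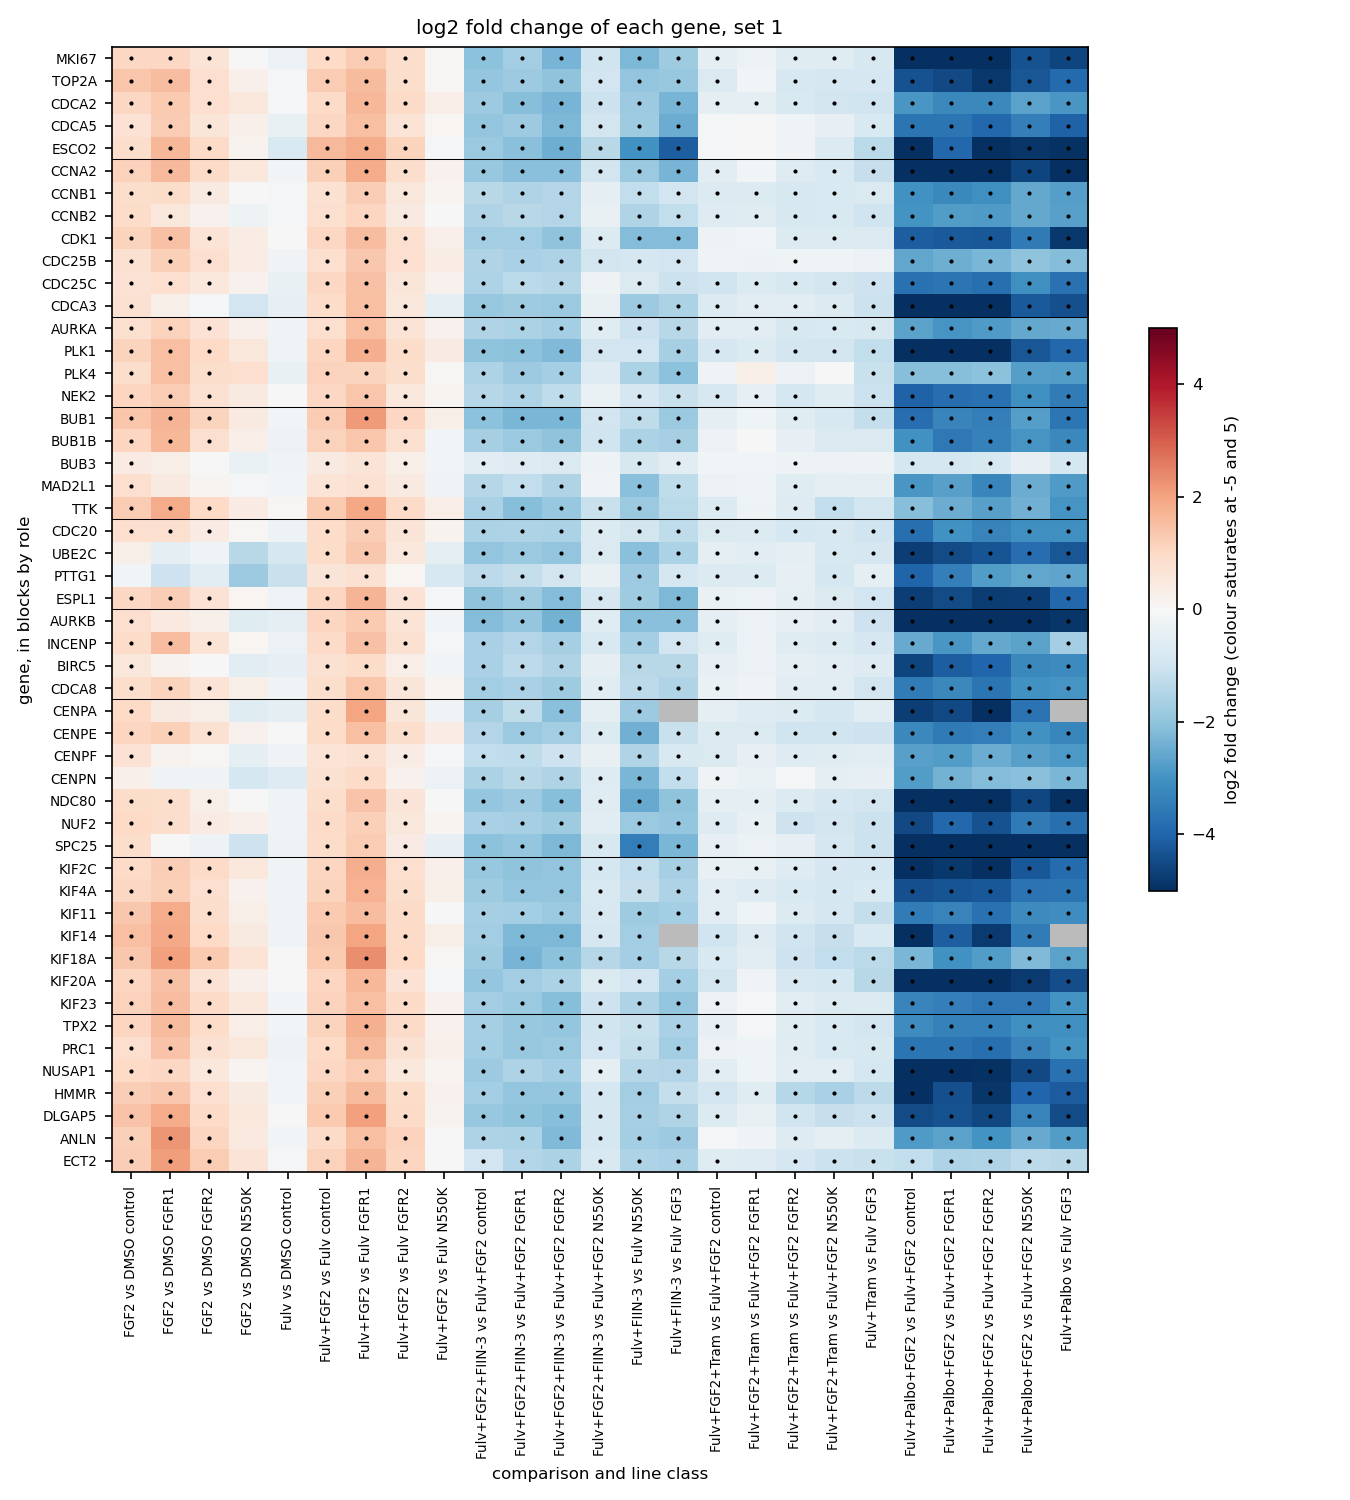
Change of each of the 50 members (rows, by functional group) in each comparison (columns) as log2 fold change on a colour scale, with red higher and blue lower in the first-named arm; dots mark calls and grey cells were not tested. Columns for FGF2 are mostly red except in N550K, those for FIIN-3 blue, and those for Palbo the darkest blue apart from BUB3 and ECT2.

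Trametinib, an inhibitor of the kinase MEK, lowered the list by less than FIIN-3 in FGFR1 cells and the FGFR2 class, where the drugs were compared directly. On Fulv+FGF2, 39 of 50 members fell in control lines (16% of all genes, member median -0.51), 19 in FGFR1 cells (5.83%, -0.31), 42 in the FGFR2 class (10.5%, -0.63; 46 without the libraries that stand apart) and 39 in N550K (4.93%, -0.77). Without the libraries that stand apart, 25.9% of all genes were called in the FGFR2 class, in either direction. In FGF3 cells 37 fell with Fulv+Tram against Fulv (4.44%, -0.90), KIF20A by 1.39 ± 0.13. Compared directly, 49 members were higher with Tram than with FIIN-3 in FGFR1 cells (13.6%, median 1.33) and 49 in the FGFR2 class (24.8%, median 1.23; 50 without the libraries that stand apart). The exceptions were CENPA in FGFR1 cells and PTTG1 in the FGFR2 class. In N550K cells the drugs were not compared directly, and on Fulv+FGF2 39 members were lower with Tram (median -0.77) and 37 with FIIN-3 (median -0.76). The N550K score was 5.30 ± 0.24 with Tram and 5.30 ± 0.09 with FIIN-3 (n = 6 each).

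The hyaluronan receptor and spindle protein HMMR fell most in the FGFR2 class, by 1.42 ± 0.11, and in N550K cells, by 1.60 ± 0.25. In control lines CDC25C, a phosphatase that activates CDK1, fell by 1.02 ± 0.12 and KIF14 by 1.01 ± 0.18. In FGFR1 cells CENPE, CDC20 and PLK1 fell most, with PLK1 at -0.69 ± 0.08. CCNB1 in control lines was 169.5, 255.5 and 329.01 CPM with Tram, which overlaps its range without the drug. All 4 passenger complex members, all 7 kinesins and all 4 anaphase members fell in control lines, but 1 of 5 checkpoint members did.

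A few members did not pass with Tram in any line class that also received FGF2. PLK4, CDCA5, ESCO2 and the checkpoint kinase BUB1B were not called in control, FGFR1, FGFR2 or N550K cells; they were picked out after their values were seen. In control lines CDCA5 was -0.09 ± 0.07, ESCO2 -0.11 ± 0.18 and PLK4 -0.19 ± 0.24 on the log2 scale. CDCA5 and ESCO2 act in sister chromatid cohesion, which is set up in S phase, and PLK4 starts centriole duplication at about the same time. BUB1B acts in the spindle checkpoint, most of whose members were not called lower in control lines either. Whether the lack of calls goes with a role in S phase was not tested. Of 34 DNA replication genes, 9 fell and 1 rose with Tram in control lines (16% of all genes were lower), 0 fell and 1 rose in FGFR1 cells (5.83%), 7 fell in the FGFR2 class (10.5%) and 1 fell in N550K (4.93%). As shares of 34 these lie somewhat above the background in control lines and the FGFR2 class and below it in FGFR1 and N550K. With FIIN-3 on Fulv+FGF2, 34 fell in control lines (13.8% of all genes), 32 in FGFR1 cells (15.1%), 33 in the FGFR2 class (27%) and 18 in N550K (8.02%).

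Palbociclib gave the deepest losses of the 3 inhibitors added to Fulv+FGF2. On Fulv+FGF2, all 50 members fell in control lines (14.6% of all genes, median -3.80), in FGFR1 cells (8.32%, -3.65) and in the FGFR2 class (14.5%, -3.75). In N550K cells 49 fell (5.64%, -3.21; 50 without the library that stands apart), and in FGF3 cells all 48 tested members fell with Fulv+Palbo against Fulv (5.56%, -3.25). Without the N550K library that stands apart, 8.85% of all genes were called in N550K cells, in either direction. Low depth marked 4 of the 6 FGF3 libraries with Fulv+Palbo and 1 of the 4 with Fulv. AURKA, the centrosomal Aurora kinase, was 157.98, 204.96 and 248.5 CPM in control lines with Fulv+FGF2 and 22.1, 31.7 and 41.7 CPM with Palbo, a fall of 2.68 ± 0.09. CDC25B fell by 2.61 ± 0.13. The N550K score spread widest, from 1.57 in the library that stands apart to 3.76, with a mean of 2.63, or 2.84 without that library. In control lines MKI67 was 0.457, 2.46 and 4.37 CPM with Palbo, PLK1 2.03, 3.96 and 8.10 CPM and AURKB 0.231, 0.892 and 2.52 CPM in the lowest, median and highest library. None of these ranges reached those of Fulv+FGF2 or of Fulv+FGF2+FIIN-3.

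The size of the loss varied between roles. In control lines AURKB fell by 6.51 ± 0.22, SPC25 by 6.21 ± 0.25 and KIF20A by 6.02 ± 0.30 on the log2 scale. The median fall was -4.53 for the centromere and kinetochore members, -4.41 for the kinesins, -4.37 for MKI67 with the chromosome structure genes, -4.35 for anaphase control and -2.90 for the checkpoint. BUB3 fell least, by 0.89 ± 0.07, and was 166.9, 179.9 and 212.2 CPM without and 85.2, 103.3 and 123.6 CPM with Palbo. ECT2 fell by 1.24 ± 0.25 and PLK4 by 2.11 ± 0.33. ECT2 with Palbo was 10.5, 35.9 and 72.8 CPM, which overlaps its range of 19.99, 89.1 and 146.1 CPM without it.

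Set against FIIN-3 in matched arms with Fulv and FGF2, Palbo left 44 of 50 members lower in FGFR1 cells (7.45% of all genes, median -1.82) and 46 of 49 in the FGFR2 class (19.4%, median -1.87). CDCA3 differed most in FGFR1 cells, at -4.87 ± 0.34, and AURKB in the FGFR2 class, at -4.14 ± 0.29. The members without a call in both were ECT2 (-0.05 ± 0.35 and 0.11 ± 0.16), BUB3 (-0.21 ± 0.15 and -0.07 ± 0.08) and PLK4 (-0.30 ± 0.42 and -0.34 ± 0.26). These errors leave room for small differences in either direction.

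**Figure D4:**
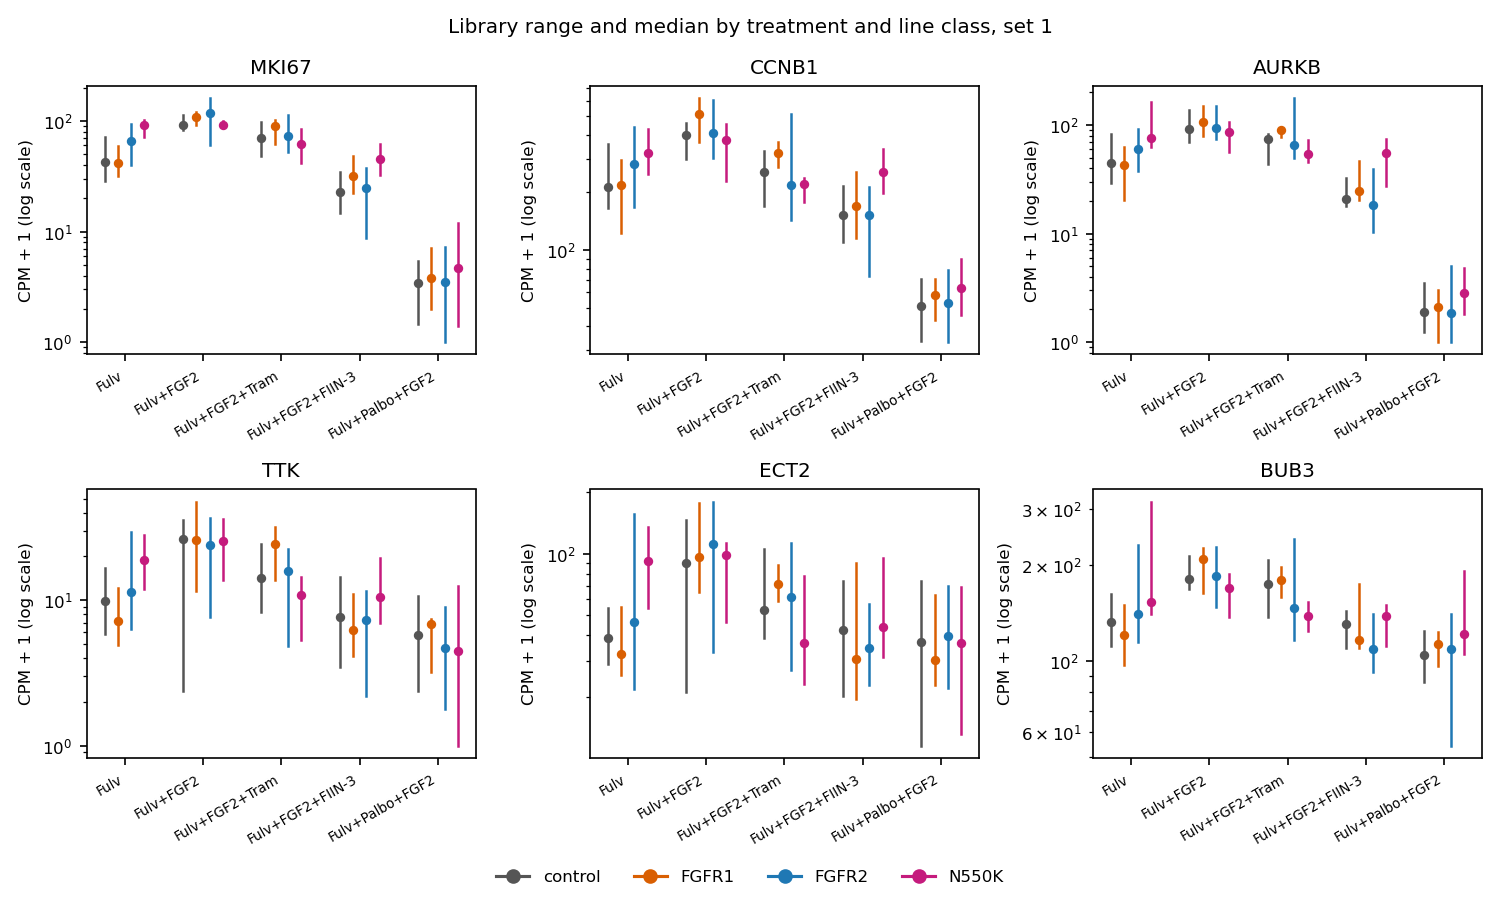
CPM + 1 on a log axis of 6 members (panels) in set 1 by treatment and line class; points are medians and lines run from the lowest to the highest library. In control lines AURKB medians are 91.3, 19.8 and 0.892 CPM with Fulv+FGF2, FIIN-3 and Palbo, while BUB3 medians are 179.9, 129.8 and 103.3 CPM.

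In set 2 nearly all arms held Palbo, the members' counts were low and 34 to 49 of them could be tested. In FGF3 cells all 49 tested fell with Palbo against the group labelled control (4.8% of all genes, median -3.55), ESCO2 by 6.84 ± 0.53 and BUB3 by 0.95 ± 0.21. The score there was 6.18 ± 0.08 in that group, 4.89 ± 0.19 with FIIN-3 and 2.78 ± 0.25 with Palbo. With Palbo every line class had a mean between 2.77 and 3.25, and no arm with Palbo in set 2 had a class mean above 3.45. Several members had no read in any library of a group, among them CENPA in parental cells with Palbo, ESCO2 in FGFR1 cells with Palbo, and SPC25 and KIF14 in parental cells with Palbo+FGF2.

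FGF2 moved few members once Palbo was present. In control lines none of 39 tested was called by edgeR (1.11% of all genes were called; 6 members at unadjusted p under 0.05; 0 by DESeq2), with a median of 0.11. In FGFR1 cells 7 of 34 rose (12.9%, median 0.26): ANLN by 1.22 ± 0.25, CDCA5 by 0.99 ± 0.20, ECT2 by 0.88 ± 0.19, and CDC25B, CCNB2, CDC20 and CENPN. In the FGFR2 class 8 of 41 rose (15.6%, median 0.21), led by DLGAP5 at 0.74 ± 0.26. ANLN, CDCA5, ECT2, CDC25B, CDC20 and CENPN were called in both classes. The shares, 7 of 34 and 8 of 41, lie not far above the background. In N550K cells CDC25B rose (5.35%, 0.97 ± 0.23), and CENPF and the chromatin phosphatase adaptor CDCA2 fell (3.88%, -0.81 ± 0.18 and -1.37 ± 0.41). Leaving out N550K Palbo replicate 1 or 4, or Palbo+FGF2 replicate 2, 4 or 5, left 1 of those that fell.

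FIIN-3 on Palbo+FGF2 lowered 8 of 34 tested members in FGFR1 cells (7.5% of all genes, median -0.56), with TTK at -1.32 ± 0.31, CDCA5 at -1.30 ± 0.21 and ANLN at -1.07 ± 0.34. In the FGFR2 class 12 of 43 fell (25% of all genes were lower) and 2 rose (25.6% were higher), KIF20A by 0.93 ± 0.30 and NUSAP1 by 0.92 ± 0.23. The share that fell was close to the background there. In N550K cells 5 of 39 fell (11.2%), a share close to the background too: BUB1, UBE2C, CENPN, CDC25B and ECT2. That count was 2 without Palbo+FGF2 replicate 3 and 3 without Palbo+FGF2+FIIN-3 replicate 4 or 5. The mean score with Fulv+Palbo+FGF2+Tram was 3.19 ± 0.23 in control lines (n = 12), and with Fulv+Palbo+FGF2+FIIN-3 it was 2.49 ± 0.20 (n = 11).

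**Figure D5:**
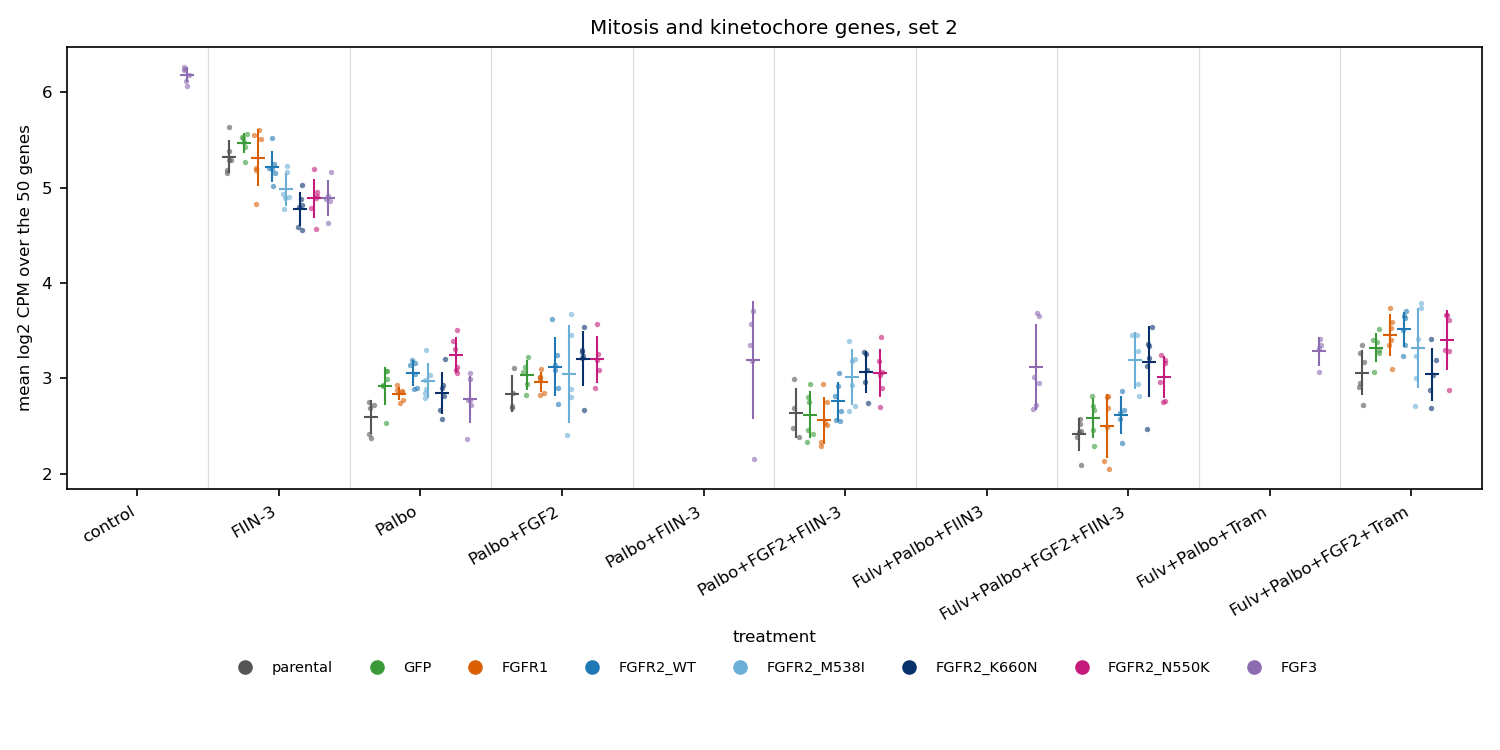
Mean log2 CPM over the 50 members in each set 2 library (points) by treatment, coloured by line, with the mean ± SD of each group as bars. FGF3 libraries labelled control average 6.18 and class means with FIIN-3 are 4.89 to 5.39, while class means of all arms with Palbo are at or below 3.45.

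The members moved together across groups. Over the 64 line and treatment groups of set 1, each member's mean log2 CPM was correlated with the mean of the other 49, with a median r of 0.97, and 44 of 50 members were above 0.9. Over the 48 groups of set 2 the median was 0.95 and 37 were above 0.9. The points share libraries across members and the arms with Palbo lie far below the rest, so r is a description only. KIF4A (0.99) was the highest and ECT2 (0.71) the lowest in set 1, with BUB3 at 0.86, TTK at 0.87, and PLK4 and KIF18A at 0.88. The span between the lowest and the highest group mean was largest for SPC25, at 7.21, and AURKB, at 7.10, and smallest for BUB3, at 1.51.

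Other genes of the pathway were counted in control lines of set 1, from lists that are separate from the 50. Of 67 other mitosis genes, 49 rose with FGF2 over DMSO (3.7% of all genes) and 55 with Fulv+FGF2 over Fulv (7.02%). On Fulv+FGF2, 58 fell with FIIN-3 (13.8% of all genes), 33 with Tram (16%) and 59 with Palbo (14.6%), and none of the 67 was called in the opposite direction in these 5 comparisons. Of 22 regulators of mitotic transcription the numbers were 6, 12, 13, 2 and 16 in the same order. With Tram, 2 of the 22 also rose, so the regulators did not share a direction there and the number that fell was below the share over all genes. FOXM1, which binds with MuvB, rose with FGF2 by 0.86 ± 0.17 and fell with FIIN-3 by 1.68 ± 0.11, with Tram by 0.33 ± 0.11 and with Palbo by 3.30 ± 0.14. MYBL2, its partner earlier in the cycle, rose with FGF2 by 0.66 ± 0.15 and fell with FIIN-3 by 1.88 ± 0.10 and with Palbo by 5.47 ± 0.19. With Tram MYBL2 was 0.04 ± 0.08 (adjusted p = 0.756). E2F1, a factor of S phase entry, was 0.08 ± 0.09 with Tram (adjusted p = 0.56) and -3.19 ± 0.15 with Palbo.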

How the data were processed

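SMART-Seq2 libraries of T47D lines were sequenced and, per the submitters' processing notes, aligned with STAR to hg19; the counting program and versions are not given in the sources used here. One deposited table held the authors' read count per gene; another held the authors' values on the log2 scale, log2(TPM + 1), of which 45 DMSO columns served for levels per length and 602 columns were not used. No library was identical to another.

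The members, the gene lists and the comparisons were chosen with earlier results of these data known. Each of 52 comparisons, and 6 added after the data were seen, was fitted on the libraries it compares with edgeR 4.0.16 (R 4.3.3; quasi-likelihood test, TMM, genes kept by filterByExpr at min.count 10), with line as an additive factor where lines were pooled. Benjamini-Hochberg adjustment ran over all genes tested, and a gene is called at an adjusted p under 0.05. Unless said to be SD, the error after a log2 fold change is its standard error. Interactions compared averages over lines. CPM used TMM-scaled library sizes within a set. Total counts of 512961 to 13012180 set the precision of low genes. MKI67, CCNB1, CDC20, PLK1, AURKA, TOP2A, BUB3 and CDC25B were followed through the comparisons, the members with the largest and smallest changes were named in each, and of other lists FOXM1, MYBL2 and E2F1. Alternatives were DESeq2 1.42.0, its size factors, no filter, a block on title numbers, and leaving out libraries. The fitting code was tested on simulated data modelled on FGF2 against DMSO. Of simulated log2 changes of size 1, it called 77.9% with the right sign in control lines and 35.9% in FGFR1 cells.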

Additional observations from a re-analysis of the deposited data

Results flagged for a closer look

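Of the line and treatment groups, 64 in set 1 and 48 in set 2, 3 held a library whose mean log2 CPM over the 50 members lay far from the rest of its group by Dixon's test, a rule that chance meets in about 1 of 20 groups. In set 1, a parental Fulv+FGF2 library was at 5.68 and its 5 companions at 6.19 to 6.44. In set 2, a GFP Palbo library was at 2.53 and its companions at 2.92 to 3.08, and a K660N Palbo+FGF2 library was at 2.67 with companions at 3.22 to 3.54. None of the 3 was a library that stands apart by MT-RNR2.

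Responses differed between line classes in interaction tests. With Fulv+FGF2 against Fulv, 6 members rose more in FGFR1 than in control lines. In the FGFR2 class, 4 members rose less than in control lines with FGF2 against DMSO, and 1 (NUSAP1) with Fulv+FGF2 against Fulv. N550K differed from control lines in 10 members for FGF2 against DMSO and in 25 for Fulv+FGF2 against Fulv. N550K differed from the FGFR2 class in 35 members for FIIN-3 on Fulv+FGF2 and in 43 for FIIN-3 on FGF2. The 10, 25 and 43 come from tests added after the data were seen.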

How the results depend on the processing

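Over the 58 comparisons, 25 refits under other settings moved the number of called members by more than 1.5 times, and no result reversed. Fulv against DMSO in the FGFR2 class (2 called) gave 6 with the title-number block and 0 without the libraries that stand apart. N550K against GFP (1) gave 0 with no filter, 2 by DESeq2, 2 with the block and 5 without the libraries that stand apart, and K660N against GFP (1) gave 0, 4 by DESeq2 and 3. FGF3 against GFP (6) gave 2 with no filter, 12 by DESeq2, 14 without the libraries that stand apart and 0 without libraries of low depth, a fit with 1 FGF3 library that says nothing about the calls. The FGF2 interaction of FGFR1 against control lines (0) gave 1 with no filter and 3 with the block, and over Fulv (6) gave 11 with the block. That of the FGFR2 class (4) gave 2 with DESeq2 size factors, 2 with no filter and 9 with the block, and over Fulv (1) gave 0 with no filter, 2 with the block and 2 without the libraries that stand apart. The added N550K interactions gave 6 with no filter and 16 by DESeq2 over DMSO (10), and 41 with the block over Fulv (25). The causes were not tested.

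Leaving out 1 library at a time gave 38 to 46 for FGF2 in FGFR1, 0 to 0 for Fulv in FGFR1 and FGF3, 42 to 47 for Fulv+FIIN-3 and 26 to 39 for Fulv+Tram in FGF3, 50 to 50 for Palbo in FGFR1, 48 to 48 for Fulv+Palbo in FGF3, 42 to 44 for Palbo against FIIN-3 in FGFR1, 1 to 14 for FGF3 against GFP, 1 to 2 and 2 to 7 for the N550K set 2 results, 38 to 47 for FIIN-3 in FGF3 of set 2, and 0 to 1 for the FGFR1 interaction, which was 1 without FGFR1 DMSO replicate 2 or GFP DMSO replicate 6. Low counts limit set 2: with a prior count of 0.5 the score moved by more than 1 SD in 24 of its 48 groups, by up to -0.40, and the rank correlation of the group order with the reported one was 0.995. No paired analysis was possible because the labels give a replicate count and no shared replicate numbers; the block on title numbers takes its place.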
